A study of Mus musculus with 24 samples.

Results

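Medium conditioned by M0 macrophages was compared with a control bandage in healing skin wounds of diabetic mice. The comparison rested on 10 of the 24 libraries of the study, chosen by their group label: 4 libraries labelled CM0 and 6 labelled Ctrl. All mice were male, of the strain C57BLKS/J and homozygous for the db allele of Lepr, the leptin receptor gene. CM0 wounds and Ctrl wounds therefore shared the receptor mutation, the obesity and the diabetes that come with it, and no wound of a mouse without the mutation was used here. A full-thickness punch wound of 6 mm was made on the back of 16-week-old mice, and an alginate bandage was laid on it directly. In CM0 the alginate carried medium in which primary macrophages in the M0 state had been kept, and in Ctrl it was the control bandage. The bandage was replenished on day 3 and the wound was collected on day 10, at 17.5 weeks of age. The medium is a mixture of everything the cells released, and the labels do not say whether the control alginate held medium that had met no cells. The other 14 libraries came from wounds under medium of M1 (CM1, 4 libraries), M2a (CMA, 5 libraries) or M2c (CMC, 5 libraries) macrophages. They entered the estimate of the spread between libraries and 1 comparison.

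A skin wound closes through the joint work of several tissues. Keratinocytes at the edge switch on migration and defence genes, crawl over the gap and then differentiate again into a layered epidermis, while fibroblasts and new vessels fill the bed with a collagen-rich matrix. Macrophages clear debris and release growth factors and cytokines, and in db/db mice inflammation lasts longer and closure is slow. Macrophages left without a polarising stimulus are called M0, and what they secrete can act on every one of these compartments.

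Total counts ranged between 9679936 and 10826300 in CM0 and between 7267879 and 11985292 in Ctrl. Every Ctrl library except Ctrl 6 had fewer counts than the lowest CM0 library. An exact permutation test over libraries gave p = 0.181 for this difference (0.486 adjusted over 6 library measures). Without Ctrl 6 the unadjusted p of that test was 0.0159. Expression is given in CPM, a gene's count relative to the total of its library after TMM scaling. The epidermal keratins Krt5 and Krt14, the collagens Col1a1 and Col3a1, the endothelial Pecam1, the leukocyte gene Ptprc and the macrophage gene Cd68 were all expressed in all 10 libraries, the lowest being Pecam1 at 67.0 CPM in Ctrl 3. Each gene list was given a score per library, its members' average log2 CPM. By such scores 3 Ctrl libraries stood apart in at least 1 list. Ctrl 3 had the highest hair follicle score, 8.13, against −1.14 to 4.83 in the other Ctrl libraries. Ctrl 4 had the highest interferon score, 4.28, against 3.31 to 3.53 in the other Ctrl libraries. Its muscle score, 8.73, was the highest too, but close to 8.57 in CM0 2 and 8.51 in Ctrl 2. Ctrl 1 had the highest score of hypoxia and glycolysis genes, 7.52, against 6.34 to 6.63 in the other Ctrl libraries.

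No gene passed the test across all genes in the edgeR quasi-likelihood fit. Of 18978 genes tested, edgeR called 0 (0.0%) at a Benjamini-Hochberg adjusted p under 0.05. The other tools, at the same threshold, called 1 of 18970 genes (0.00527%, DESeq2) and 0 (0.0%, limma with quality weights). At an unadjusted p under 0.05, edgeR gave 933 genes (4.92%), of which 405 (2.13%) were higher and 528 (2.78%) lower in CM0, DESeq2 gave 900 (4.74%) and limma 1377 (7.26%). Unadjusted p-values were spread almost evenly from 0 to 1. Log2 fold changes of CM0 over Ctrl had a median of −0.01 over all genes, with 9004 higher and 9974 lower, and their middle range (quartiles) is shown in the plot of list medians. The groups did not overlap for 152 genes (0.801%), 54 (0.285%) with CM0 higher and 98 (0.516%) with CM0 lower. Apart from Vgll3, the edgeR adjusted p was 0.946 or more for each gene, so single genes below are described by their values, and their log2 fold change with its standard error (SE) or 95% interval, and the words higher and lower describe these libraries.

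**Figure D1:**
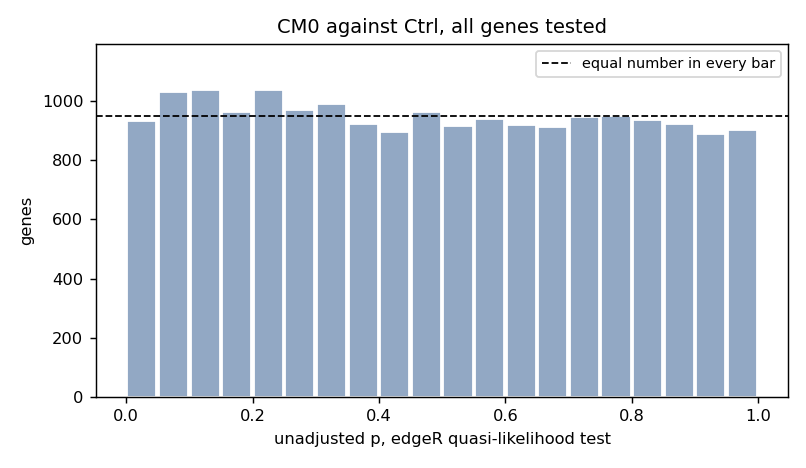
Number of genes (vertical axis) by unadjusted p of the edgeR test of CM0 against Ctrl (horizontal axis, bars 0.05 wide); the dashed line is the number per bar if all bars were equal, 948.9. The leftmost bar holds 933 genes, below the dashed line, and the bars lie between 889 and 1038 genes.

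The gene with the smallest p was Vgll3 (ENSMUSG00000091243, GRCm38 chr16:65815257-65866368, plus strand), which encodes a partner of the TEAD transcription factors, the DNA-binding end of the Hippo pathway. This pathway relays tissue tension and cell crowding to the nucleus through YAP and TAZ. Vgll3 stood at 74.7, 62.5, 84.1 and 78.5 CPM in CM0 1 to CM0 4, against a range of 51.6 to 61.4 CPM and a median of 56.6 in Ctrl. The lowest CM0 library, CM0 2, lay just above the highest Ctrl library. Its log2 fold change was 0.40 (SE 0.08, 95% interval 0.24 to 0.56), a 1.32-fold difference, with an adjusted p = 0.529 in edgeR, 0.0113 in DESeq2 and 0.28 in limma. Without CM0 2 the edgeR adjusted p was 0.0301. Lats2, a kinase that restrains YAP, was also higher at an unadjusted p, with 38.7, 36.5, 42.5 and 42.5 CPM in CM0 against 30.9 to 37.8 CPM in Ctrl (log2 fold change 0.22, SE 0.07, 95% interval 0.08 to 0.37). CM0 2 lay within the Ctrl range for Lats2 and the other CM0 libraries above it. Of the 22 tested genes of the YAP and TEAD list 17 were higher and 5 lower, 2 of them higher at an unadjusted p under 0.05 (2.13% of all genes), and the median was 0.08, against −0.01 over all genes. Vgll3, picked by its p in this contrast, was 1 of these 2, so the count is no separate support for it. The log2 fold change was 0.08 (SE 0.08) for Yap1 itself and, for Ccn2, a classic YAP target that codes for a matricellular protein, it was 0.45 (SE 0.29). Genes named in this and later groups beyond the one with the smallest p were chosen after their values were seen.

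Dact2, Dact1, Twsg1 and Disp1 were 4 of the 10 higher genes with the smallest p. Dact2 (chr17:14195052-14204304, minus strand), a binding partner of Dishevelled that also dampens TGF-beta signalling, stood at 15.7, 6.86, 20.1 and 9.83 CPM in CM0, against 1.76 to 6.2 CPM (median 3.56) in Ctrl. CM0 2 was close to the highest Ctrl library and the rest lay well above it. The log2 fold change was 1.86 (SE 0.46, 95% interval 0.91 to 2.81). Its relative Dact1 had 37.7, 35.0, 54.8 and 47.6 CPM in CM0, against 22.3 to 33.8 CPM in Ctrl, again without overlap (log2 fold change 0.65, SE 0.18, 95% interval 0.29 to 1.02). Twsg1, which binds BMPs outside the cell and can raise or lower their activity, had 127, 124, 158 and 139 CPM in CM0, against 99.4 to 120 CPM in Ctrl (log2 fold change 0.32, SE 0.09, 95% interval 0.14 to 0.50). Disp1, which releases lipid-anchored Hedgehog ligands from the cells that make them, had 27.2, 23.9, 27.6 and 25.9 CPM in CM0, against 17 to 21.1 CPM in Ctrl (log2 fold change 0.44, SE 0.12, 95% interval 0.19 to 0.69). For Twsg1 and Disp1, too, the groups did not overlap.

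Wnt2 (chr6:17988940-18030585, minus strand), a WNT ligand, had the smallest p of the WNT list. It stood at 23, 9.39, 25.1 and 12.9 CPM in CM0, against 1.09 to 10.3 CPM (median 5.03) in Ctrl. CM0 2 lay below the highest Ctrl library, Ctrl 1, and the other CM0 libraries above it. The log2 fold change was 1.78 (SE 0.63, 95% interval 0.48 to 3.09). Of the 24 tested WNT genes 13 were higher and 11 lower with a median of 0.06, and Wnt2 alone passed an unadjusted p under 0.05. The median without Ctrl 3 and Ctrl 4 was 0.25, with 21 members higher, and without 1 library it ranged between 0.01 (Ctrl 6) and 0.21 (Ctrl 3). The WNT effector Lef1, which is active in the hair matrix, had a log2 fold change of −1.48 (SE 0.99) with 45.6 CPM in Ctrl 3, the library with the highest hair follicle score, and 1.38 without Ctrl 3 and Ctrl 4. Among the TGF-beta and BMP genes 13 of 22 were higher and 9 lower, with a median of 0.06, or 0.004 without CM0 4 and 0.02 without CM0 1. Ltbp1 in that list, which anchors latent TGF-beta in the matrix, had 69.3, 45.0, 88.2 and 81.3 CPM in CM0, against 40.9 to 60.6 CPM in Ctrl (log2 fold change 0.53, SE 0.20, 95% interval 0.10 to 0.95). CM0 2 lay within the Ctrl range. Tgfb1, the main ligand, had a log2 fold change of −0.15 (SE 0.15).

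Fibin, a secreted factor known from limb development in fish and mouse, stood at 40.1, 26.8, 32.8 and 49.5 CPM in CM0, against 13.9 to 22.4 CPM (median 18.3) in Ctrl. All CM0 libraries lay above all Ctrl libraries (log2 fold change 1.01, SE 0.25, 95% interval 0.50 to 1.52). The other genes among the 10 higher ones with the smallest p were Car8, a catalytically inactive member of the carbonic anhydrase family that binds an inositol trisphosphate receptor, Cfap300, a cilium and flagellum protein, Prdm8, a chromatin regulator studied in neurons and retina, and Tek. Car8 had the largest fold among them, with 3.48, 1.51, 8.71 and 2.26 CPM in CM0, against 0.27 to 1.87 CPM in Ctrl (log2 fold change 2.08, SE 0.53). Without CM0 3, the highest library, the log2 fold change of Car8 was 1.37. Prdm8 had 3.75, 1.92, 2.80 and 2.75 CPM in CM0, against 0.242 to 1.43 CPM in Ctrl, without overlap (log2 fold change 1.57, SE 0.41). Cfap300 was higher by 0.68 (SE 0.18) on the log2 scale, though CM0 4 lay within the Ctrl range.

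**Figure D2:**
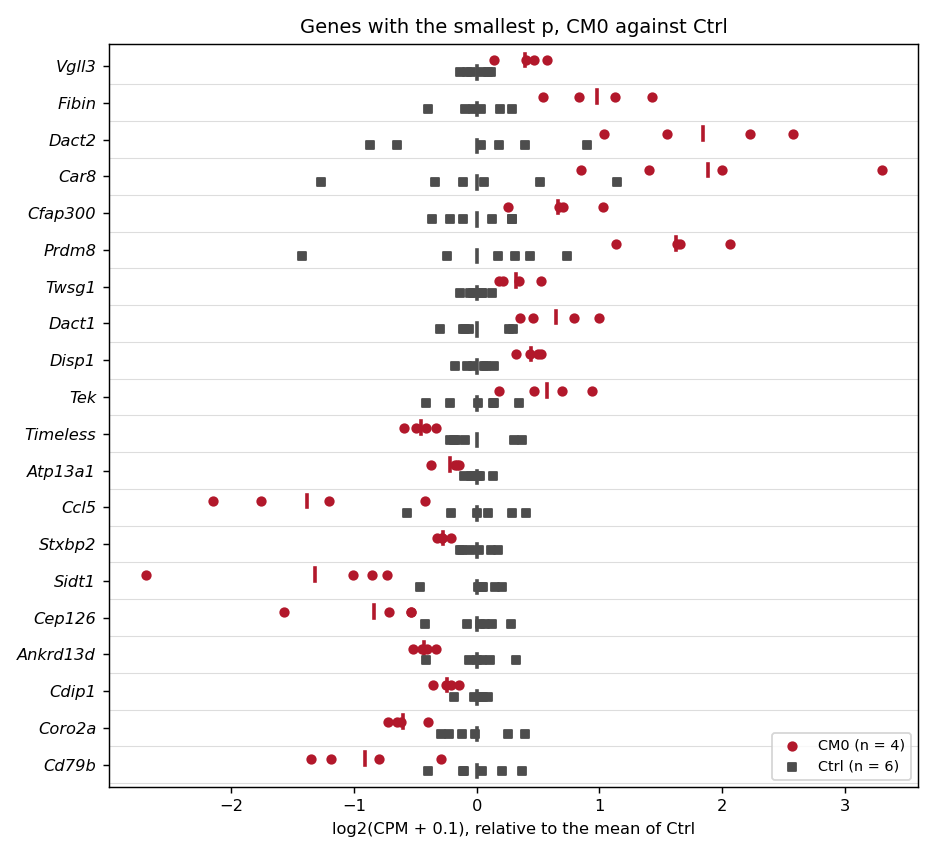
The 10 higher and 10 lower protein-coding genes with the smallest p, with log2(CPM + 0.1) relative to the mean of Ctrl on the horizontal axis. Circles are the 4 CM0 libraries, squares the 6 Ctrl libraries and short lines the group means; the genes were picked by this contrast, so the separation is a description. Vgll3, with a log2 fold change of 0.40, has the smallest standard error of the higher genes (0.08), and Dact2 and Car8 have log2 fold changes of 1.86 and 2.08.

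The 10 lower genes with the smallest p were led by Timeless (chr10:128232065-128252941, plus strand), which protects replication forks. It stood at 12.4, 13.9, 13.2 and 11.6 CPM in CM0, against 15.1 to 22.7 CPM (median 16.0) in Ctrl. The groups did not overlap, and the highest Ctrl libraries were Ctrl 3 and Ctrl 4 (log2 fold change −0.48, SE 0.12, 95% interval −0.73 to −0.22). Without these 2 libraries it was −0.29. Ccl5, a chemokine made by T cells and NK cells, had 0.915, 0.303, 0.207 and 0.492 CPM in CM0, against 0.819 to 1.70 CPM in Ctrl (log2 fold change −1.39, SE 0.38, 95% interval −2.18 to −0.59). Cd79b, the signalling chain of the B cell receptor, had 1.37, 0.606, 0.934 and 0.688 CPM in CM0, against 1.26 to 2.22 CPM in Ctrl (log2 fold change −0.91, SE 0.28, 95% interval −1.48 to −0.34). In both genes CM0 1 reached into the Ctrl range. In whole tissue, fewer cells of a type and less RNA per cell cannot be told apart. Of the 14 tested genes of the lymphocyte list 4 were higher and 10 lower, with a median of −0.07 (between −0.18 and 0.007 without 1 library), and Cd79b was the member at an unadjusted p under 0.05. The T cell receptor chains Cd3e and Cd3d had log2 fold changes of −0.04 (SE 0.32) and 0.28 (SE 0.37).

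The remaining lower genes were of mixed roles. Stxbp2, which docks secretory granules in leukocytes and other cells, had 44.9, 41.5, 42.6 and 42.6 CPM in CM0, against 47.3 to 58.4 CPM in Ctrl, without overlap (log2 fold change −0.28, SE 0.08). Coro2a, an actin-binding protein, had 12.5, 9.99, 10.5 and 10.7 CPM in CM0, against 13.5 to 21.8 CPM in Ctrl, also without overlap (log2 fold change −0.62, SE 0.19). Atp13a1, an ATPase of the endoplasmic reticulum, had a log2 fold change of −0.21 with SE 0.06, CM0 1 being the lowest library, and Cdip1, a p53-responsive gene of cell death, one of −0.24 with SE 0.07. Zfp866 overlaps Atp13a1 and Hmox2 overlaps Cdip1 on the opposite strand, and these libraries do not mark the strand, so their reads cannot be fully separated. Sidt1, a membrane protein linked to RNA uptake, had a log2 fold change of −1.29 (SE 0.37), Cep126, a centrosome protein, −0.82 (SE 0.24) and Ankrd13d, a ubiquitin-binding protein, −0.44 (SE 0.13). Sidt1 had at most 0.688 CPM in CM0.

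Genes of the differentiating epidermis were mostly higher in CM0. Of the 15 tested suprabasal genes 14 were higher and 1 lower, with a median log2 fold change of 0.34, against −0.01 over all genes, and 4 were higher at an unadjusted p under 0.05 (2.13% of all genes). Klf4 (chr4:55527143-55532466, minus strand), a transcription factor needed for the skin barrier, had the smallest p. It stood at 206, 157, 176 and 202 CPM in CM0, against 101 to 170 CPM (median 123) in Ctrl. CM0 2 lay inside the Ctrl range, below Ctrl 1, and the other CM0 libraries above it (log2 fold change 0.53, SE 0.17, 95% interval 0.18 to 0.88). The suprabasal keratin Krt10 was higher by 0.77 ± 0.27 (SE; 95% interval 0.21 to 1.32) on the log2 scale, and its partner Krt1 by 0.73 ± 0.31 (0.09 to 1.37). Krt1 had 2275, 3396, 3778 and 4403 CPM in CM0, against 1364 to 3421 CPM in Ctrl. For Krt1 the highest Ctrl library was again Ctrl 1, above CM0 1 and CM0 2. Calml3, a calmodulin-like protein of keratinocytes, was higher by 0.93 ± 0.40 on the log2 scale (SE; 95% interval 0.10 to 1.75). Krt2, a keratin of the uppermost living layers, was the exception, with 19.5, 20.3, 34.1 and 54.4 CPM in CM0, against 38.4 to 139 CPM in Ctrl (log2 fold change −1.19, SE 0.50, 95% interval −2.23 to −0.15). The suprabasal score was 7.542, 7.684, 7.998 and 8.135 in CM0, against 6.632 in Ctrl 6 and 7.24 to 7.975 in the other Ctrl libraries. CM0 1 thus lay below Ctrl 1, Ctrl 2, Ctrl 3 and Ctrl 5. The suprabasal median was 0.54 without Ctrl 1 and 0.19 without Ctrl 6.

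Of 21 tested genes of the cornified envelope, the protein shell of dead surface cells, 18 were higher and 3 lower (median 0.28). None was higher at an unadjusted p under 0.05, and 1 was lower, Tchh, a hair and inner root sheath protein with 3412 CPM in Ctrl 3 (log2 fold change −4.00, and 2.53 without Ctrl 3 and Ctrl 4). That median was 0.07 without CM0 4, 0.13 without Ctrl 6 and 0.50 without Ctrl 1. Of 15 genes for barrier lipids and the proteases that shed the surface 14 were higher and 1 lower (median 0.36), and it was 0.22 without Ctrl 6. Smpd1, the acid sphingomyelinase that makes ceramide for the barrier, had 52.2, 56.4, 66.6 and 75.3 CPM in CM0, against 40.4 to 61.4 CPM in Ctrl (log2 fold change 0.36, SE 0.14, 95% interval 0.07 to 0.64). Basal keratinocyte genes differed less, with 11 of 15 higher and a median of 0.12, or 0.07 without Ctrl 6 and 0.07 without Ctrl 3 and Ctrl 4. The basal keratin Krt14 had a difference of 0.51 ± 0.33 on the log2 scale (SE; 95% interval −0.17 to 1.20).

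Genes of the activated wound-edge keratinocyte had the highest median of the 48 lists. Of 18 tested members 17 were higher and 1, Areg, lower, with a median log2 fold change of 0.75, and 3 were higher at an unadjusted p under 0.05 (2.13% of all genes). The list score was 5.12, 4.09, 5.62 and 6.11 in CM0, against 5.83 in Ctrl 1 and 3.74 to 4.84 in the other Ctrl libraries. The groups overlapped, since CM0 2 was low and Ctrl 1 high. The median was 0.29 without CM0 4 and 1.16 without Ctrl 1. Il1f6, Il1f5 and Serpinb3a were the members with the smallest p. Il1f6, the IL-36 alpha cytokine of inflamed epidermis, had 5.58, 8.68, 9.75 and 17.3 CPM in CM0, against 2.44 to 6.77 CPM in Ctrl (log2 fold change 1.17, SE 0.47, 95% interval 0.19 to 2.15). Il1f5 encodes the antagonist of the same IL-36 receptor, and it had 74.5, 109, 144 and 169 CPM in CM0, against 35.9 to 99.0 CPM in Ctrl (log2 fold change 0.89, SE 0.37, 95% interval 0.11 to 1.66). Thus agonist and antagonist were both higher, in each case with CM0 4 the highest of all 10 libraries and CM0 1 inside the Ctrl range. Serpinb3a, a protease inhibitor of stressed epithelium, was higher by 1.78 on the log2 scale (95% interval 0.18 to 3.38), and by 1.02 when CM0 4 was left out. Reads of Serpinb3a and of Stfa3 cannot always be told from those of their close copies. The migration keratin Krt6a had 666, 118, 952 and 1415 CPM in CM0, against 90.8 to 1309 CPM (median 368) in Ctrl. Its libraries spread over more than an order of magnitude in both groups (log2 fold change 0.74, SE 0.62, 95% interval −0.55 to 2.04).

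**Figure D3:**
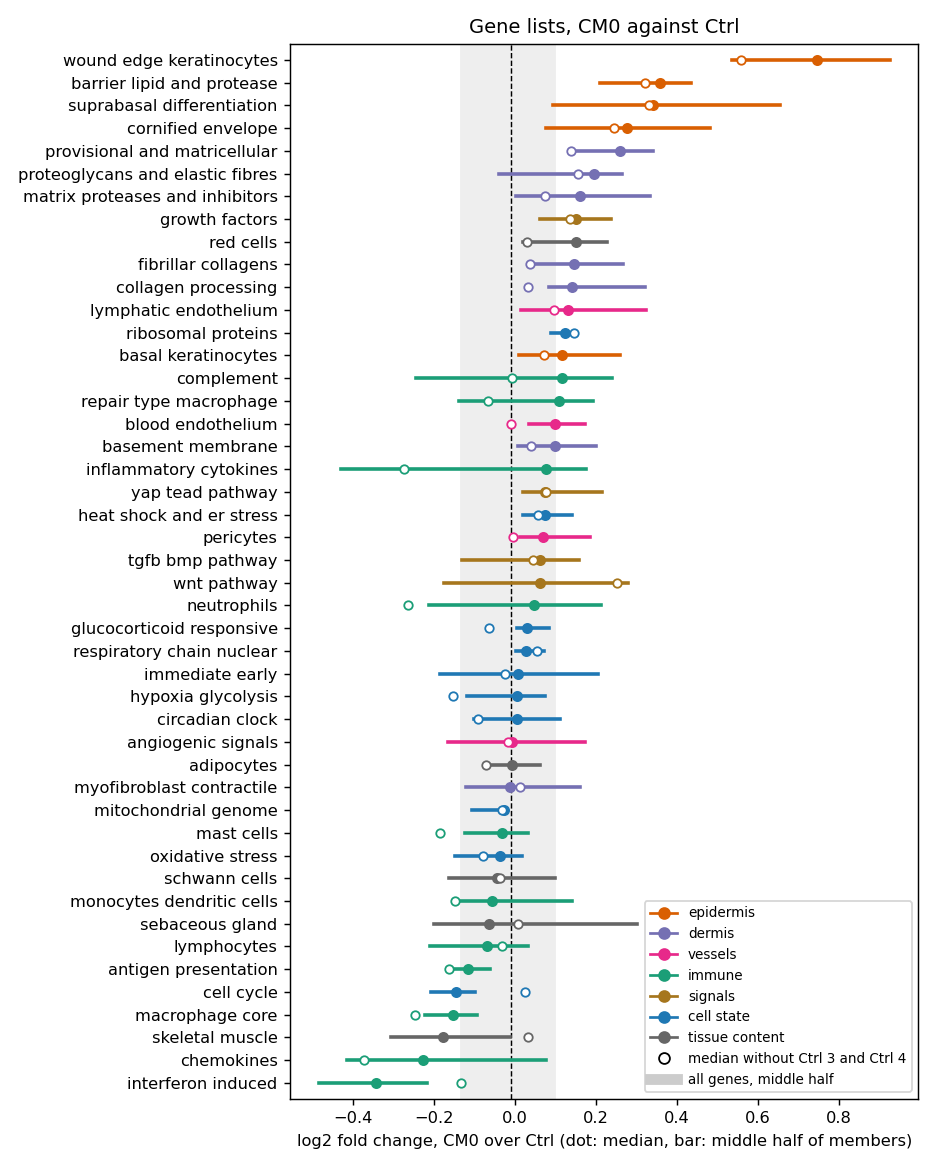
Median log2 fold change of CM0 over Ctrl for 46 gene lists (dot), with the quartile range of the members (bar), coloured by class; open circles are medians without Ctrl 3 and Ctrl 4, and the grey band is the quartile range of all genes. The wound-edge list sits at the top with 0.75, followed by the other epidermal lists except basal keratinocytes (0.12), and the interferon list at the bottom, with −0.34; the hair follicle (−2.76) and melanocyte (−1.24) lists are off this scale and not drawn.

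Matrix genes of the dermis were higher by smaller amounts. Of 16 fibrillar and associated collagen genes 13 were higher and 3 lower (median 0.15). This median was 0.06 without CM0 4, 0.08 without Ctrl 3, 0.25 without Ctrl 6 and 0.04 without Ctrl 3 and Ctrl 4. The main collagens had log2 fold changes of 0.03 for Col1a1 (SE 0.16, −0.02 when scaled by library totals) and 0.19 for Col3a1 (SE 0.17). Col12a1, which decorates collagen fibrils under tension, had 3077, 3172, 4116 and 5741 CPM in CM0, against 1701 to 3793 CPM in Ctrl (log2 fold change 0.57, SE 0.25, 95% interval 0.05 to 1.10). Of 20 genes of collagen folding and cross-linking 19 were higher and 1, Plod1, lower (median 0.14). It was 0.23 without CM0 2, 0.07 without Ctrl 3 and 0.03 without Ctrl 3 and Ctrl 4, with 14 higher. Serpinh1, the collagen chaperone HSP47, had 966, 1045, 1016 and 1037 CPM in CM0, against 658 to 1030 CPM in Ctrl, with Ctrl 6 the only Ctrl library inside the narrow CM0 range.

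Of the 17 genes of the provisional and matricellular matrix, the scaffold on which cells migrate, 16 were higher (median 0.26), and 14 without Ctrl 3 and Ctrl 4 (median 0.14). Fn1, the fibronectin gene, had 4328, 1991, 3371 and 3034 CPM in CM0, against 1526 to 3273 CPM (median 1939) in Ctrl. Ctrl 1 and Ctrl 6 lay among the higher CM0 libraries, and CM0 2 lay inside the Ctrl range, just above its median (log2 fold change 0.51, SE 0.30, 95% interval −0.10 to 1.12). Elastic fibre genes had smaller errors. Fbln5, which assembles elastin fibres, had 66.6, 83.0, 89.8 and 73.3 CPM in CM0, against 55.2 to 71.1 CPM in Ctrl (log2 fold change 0.31, SE 0.10, 95% interval 0.11 to 0.51). Fbn1, the microfibril protein fibrillin-1, had 3038, 1787, 3002 and 2030 CPM in CM0, against 1337 to 2380 CPM in Ctrl (log2 fold change 0.57, SE 0.24, 95% interval 0.08 to 1.06). The proteoglycan and elastic fibre list as a whole had 13 of 18 members higher (median 0.20, and 0.08 without CM0 3). Contractile and myofibroblast genes were split evenly, 8 higher and 8 lower, with a median of −0.01 (between −0.10 and 0.09 without 1 library). Acta2, the actin of myofibroblasts, had a difference of 0.26 ± 0.25 on the log2 scale (SE; 95% interval −0.27 to 0.78).

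Vessel genes differed little apart from Tek (chr4:94739289-94874976, plus strand), the angiopoietin receptor TIE2. Tek stood at 50.4, 35.2, 59.7 and 43.0 CPM in CM0, against 23.3 to 39.4 CPM (median 32.8) in Ctrl. CM0 2 lay inside the Ctrl range and the other CM0 libraries above it (log2 fold change 0.58, SE 0.16, 95% interval 0.25 to 0.91). Angpt1, its activating ligand made by mural cells, had 8.88, 11, 10.1 and 10.1 CPM in CM0, against 6.02 to 10.6 CPM in Ctrl (log2 fold change 0.36, SE 0.16, 95% interval 0.04 to 0.69). Of 21 blood endothelial genes 18 were higher and 3 lower (median 0.10). Without Ctrl 3 and Ctrl 4, 10 of 21 were higher, and without 1 library the median ranged between −0.03 and 0.20. Pecam1, an adhesion protein of endothelial junctions, differed by 0.09 on the log2 scale (SE 0.17) with all libraries and −0.02 leaving out Ctrl 3 and Ctrl 4. The score of the 12 tested lymphatic genes was 3.43, 3.33, 3.56 and 3.38 in CM0, against 2.96 to 3.30 in Ctrl. These scores did not overlap, with Ctrl 3 lowest, but the margin was narrow, with CM0 2 at 3.33 and Ctrl 2 at 3.30. Of the 48 gene lists, only this list had scores without overlap. Such a case can arise by chance when many lists are compared. No single lymphatic gene had an unadjusted p under 0.05, the smallest being that of Sema3d, a guidance cue (log2 fold change 0.34, SE 0.18, 95% interval −0.04 to 0.72). The median over the lymphatic list was 0.13, 0.06 without Ctrl 4 and 0.003 without CM0 3.

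Interferon-induced genes were lower in CM0. Interferons signal through transcription factors that bind the interferon-stimulated response element (ISRE) or the gamma-activated site (GAS) in promoters of antiviral genes. Promoter windows from RefSeq (GRCm38.p6, 250 bases before to 50 after the gene start) were searched on both strands for the core of the ISRE, which is GAAA, any 2 bases and GAAA again, and for the GAS, which is TTC, any 3 bases and GAA. The ISRE letters were present in 17 of 29 windows of 26 list genes (58.6%), against 1131 of 32851 windows of all genes (3.44%), and the GAS letters in 8 of 29 (27.6%), against 2726 of 32851 (8.3%). The list was made of genes known to respond to interferon, so a share above that of all genes was built into it. These counts are not a result about CM0 or Ctrl. Of the 8 list genes lower at an unadjusted p under 0.05, Igtp, Irgm1 and Gbp5 held the ISRE letters. Not every one of the 8 could be searched, as Parp14 had no window. Over the whole list, 17 of the 26 genes with a window held these letters. Their sites are shown as examples, with the motif in capitals, in the direction of the gene (a motif on the opposite strand reads TTTC, 2 bases, TTTC). A link between these letters and the difference described next was not tested.
Igtp, chr11:58199507-58199546, plus strand: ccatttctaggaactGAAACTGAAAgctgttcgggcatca
Irgm1, chr11:48871426-48871465, minus strand: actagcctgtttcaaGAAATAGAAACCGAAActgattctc
Gbp5, chr3:142496754-142496793, plus strand: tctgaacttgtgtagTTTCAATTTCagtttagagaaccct
The site of Irgm1 holds 2 overlapping matches. A match is a description of letters, and binding was not measured.

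Of the 36 interferon-induced genes tested, 35 had a negative log2 fold change and 1, Ifi35, a positive one, with a median of −0.34, against −0.01 over all genes. At an unadjusted p under 0.05, 8 of 36 were lower (2.78% of all genes). Igtp, an immunity-related GTPase, had 6.32, 4.64, 11.1 and 6.49 CPM in CM0, against 8.09 to 15.3 CPM in Ctrl (log2 fold change −0.58, SE 0.24, 95% interval −1.07 to −0.08). Irgm1, a regulator of the same GTPases, had 21, 17.6, 24.5 and 17.8 CPM in CM0, against 21.2 to 29.1 CPM in Ctrl (log2 fold change −0.32, SE 0.13, 95% interval −0.59 to −0.04). Gbp5, a guanylate-binding protein that promotes inflammasome assembly, had 5.77, 3.33, 4.15 and 4.13 CPM in CM0, against 4.73 to 7.61 CPM in Ctrl (log2 fold change −0.42, SE 0.20, 95% interval −0.82 to −0.01). In Igtp and Irgm1 CM0 3 reached into the Ctrl range, and in Gbp5 it was CM0 1. Also at this level were Oasl1 and Oasl2, which are relatives of the RNA-sensing oligoadenylate synthetases, Parp14, an ADP-ribosyltransferase, and Irf1, a transcription factor, with log2 fold changes of −0.77, −0.59, −0.31 and −0.27.

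The size of the interferon difference depended on a few libraries. The list score was 3.52, 2.97, 3.76 and 2.73 in CM0, against 4.28 in Ctrl 4 and 3.31 to 3.53 in the other Ctrl libraries. CM0 1 and CM0 3 were at or above most Ctrl libraries and CM0 2 and CM0 4 below all of them. The median was −0.15 without Ctrl 4, −0.23 without CM0 4 and −0.13 without Ctrl 3 and Ctrl 4, and in this last case 11 of 36 members were higher. Ctrl 4 also had the highest muscle score and the highest share of mitochondrial counts, 1.34% (1.335), against 0.817% to 1.12% in the other Ctrl libraries, and the part of these in the result was not tested. Antigen presentation genes had 15 of 16 members lower (median −0.12, and between −0.19 and −0.04 without 1 library), none at an unadjusted p under 0.05.

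**Figure D4:**
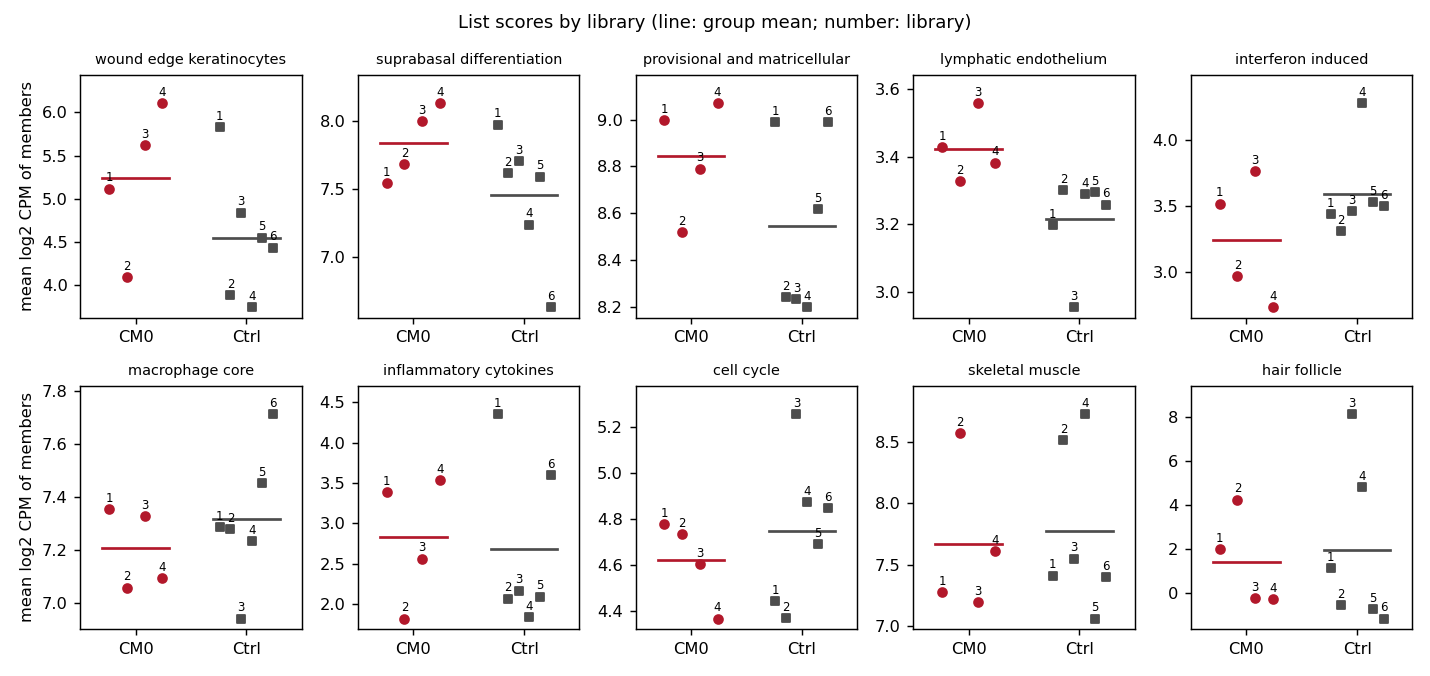
List scores (mean log2 CPM of the tested members, vertical axis) of 10 gene lists in each CM0 library (circles) and each Ctrl library (squares); numbers name the library and lines are group means. CM0 2 sits low and Ctrl 1 high in the wound-edge panel. Ctrl 4 stands alone at 4.28 in the interferon panel, and Ctrl 3 stands alone at 8.13 in the hair follicle panel. The lymphatic scores do not overlap, but CM0 2 (3.33) lies close to Ctrl 2 (3.30), and no other list separates the groups.

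Macrophage genes were lower by small amounts. Of 21 core macrophage genes 19 were lower and 2, Lyz2 and Apoe, higher, with a median of −0.15, or −0.08 without Ctrl 6 and −0.25 without Ctrl 3 and Ctrl 4. The list score was 7.355, 7.058, 7.327 and 7.093 in CM0, against 6.941 (Ctrl 3) to 7.712 (Ctrl 6) in Ctrl. By this score CM0 1 and CM0 3 lay above Ctrl 1, Ctrl 2, Ctrl 3 and Ctrl 4. Fcgr1, the high-affinity receptor for IgG, had 18.9, 12.7, 20.2 and 12.4 CPM in CM0, against 16.9 to 29.8 CPM in Ctrl (log2 fold change −0.49, SE 0.23, 95% interval −0.98 to −0.01). CM0 1 and CM0 3 lay inside the Ctrl range. Cd68, a lysosomal marker of macrophages, had a difference of −0.24 ± 0.23 on the log2 scale (SE; 95% interval −0.72 to 0.24) and Mrc1, the mannose receptor of repair-type macrophages, −0.06 (SE 0.20, 95% interval −0.48 to 0.36). Of 18 repair-type macrophage genes 11 were higher and 7 lower (median 0.11), and 5 were higher without Ctrl 3 and Ctrl 4 (median −0.07). Without CM0 3 the median was −0.21.

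Inflammatory genes varied far more within the groups than between them. Il1b, the cytokine IL-1 beta, had 21.8, 2.02, 2.59 and 69.3 CPM in CM0, against 1.76 to 51.9 CPM (median 3.63) in Ctrl. High values came from CM0 1 and CM0 4 and from Ctrl 1 and Ctrl 6 (log2 fold change 0.42, SE 1.11, 95% interval −1.88 to 2.72). Nos2, the inducible nitric oxide synthase of inflammatory macrophages, had 30.8, 1.51, 7.57 and 5.60 CPM in CM0, against 1.64 to 161 CPM (median 5.18) in Ctrl. Arg1, which competes with it for arginine, had 161, 64.2, 112 and 214 CPM in CM0, against 27.8 to 694 CPM (median 78.4) in Ctrl. Ctrl 1 was the highest library for Nos2 and Arg1, and the log2 fold change of Arg1 was −0.32 with it and 1.03 without it. Vegfa, the vascular growth factor, had 216 CPM in Ctrl 1 as well, and 44.8 to 98.2 CPM in the other Ctrl libraries. Of 13 tested inflammatory cytokine genes 7 were higher and 6 lower, of 20 chemokine genes 7 were higher and 13 lower, and of 16 neutrophil genes 10 were higher and 6 lower. Their medians were 0.08, −0.23 and 0.05, and the chemokine median was −0.11 without CM0 2, −0.01 without Ctrl 6, −0.02 without Ctrl 1 and −0.37 without Ctrl 3 and Ctrl 4. In limma with quality weights it had the opposite sign, 0.16, with 12 of 20 chemokine genes higher. Without 1 library the cytokine median ranged between −0.34 and 0.39 and the neutrophil median between −0.42 and 0.52.

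**Figure D5:**
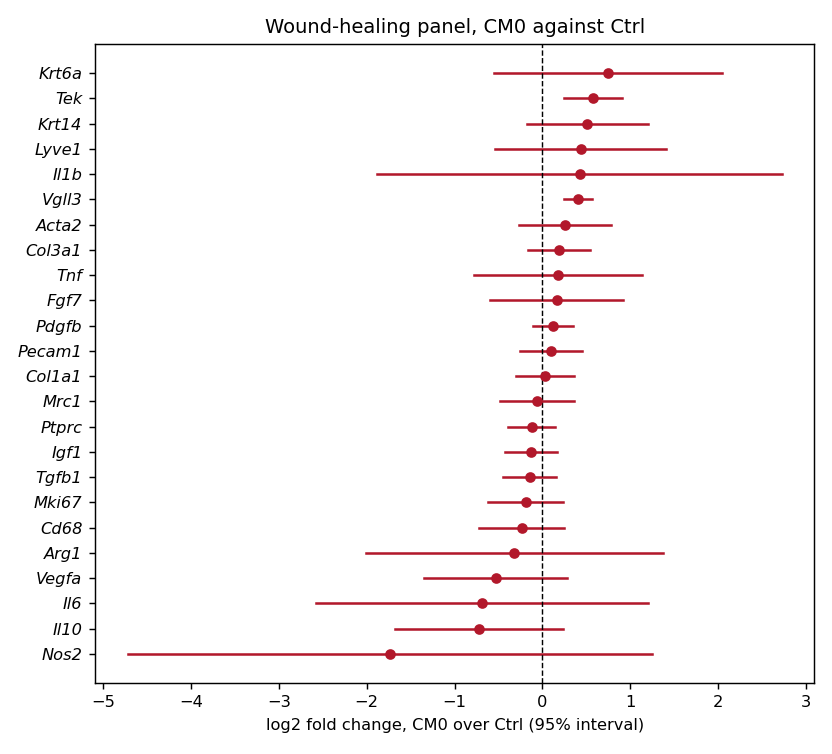
Log2 fold change of CM0 over Ctrl (points) with 95% intervals (lines) for 24 genes of wound healing, ordered by value. Vgll3 (0.24 to 0.56) and Tek (0.25 to 0.91) have intervals above 0, and the interval of Nos2, −4.72 to 1.25, is the widest. Vgll3 and Tek are also among the 10 higher genes with the smallest p in this contrast. The intervals are not adjusted for the number of genes.

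Growth factor genes were higher in 17 of 22 members (median 0.15). Pdgfd, a ligand of the PDGF receptor beta on mural cells and fibroblasts, had 21.9, 19.8, 30.5 and 24.6 CPM in CM0, against 14 to 22.2 CPM in Ctrl (log2 fold change 0.37, SE 0.17, 95% interval 0.01 to 0.73). CM0 1 and CM0 2 lay inside the Ctrl range. Igf1, Fgf7 and Pdgfb, growth factors of fibroblasts and macrophages that act on neighbouring cells, had log2 fold changes of −0.13 (SE 0.14), 0.16 (SE 0.36) and 0.12 (SE 0.11).

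Among lists of cell state, the 41 listed genes of cytosolic ribosomal proteins, which are part of that family, were higher in 40 cases, with a median of 0.12 and log2 fold changes between −0.02 and 0.19, none at an unadjusted p under 0.05. Their list scores overlapped, with 8.14, 7.921, 8.097 and 8.029 in CM0, against 7.767 to 8.147 in Ctrl. Ctrl 3 had the highest of these scores, above every CM0 library. Scaled by library totals the ribosomal median was 0.076. Outside the list, and picked out after their values were seen, Rps28 (0.21), Rps27 (0.27) and Rps21 (0.24) had higher log2 fold changes, each at an unadjusted p under 0.05. Reads of ribosomal protein genes can be shared with processed pseudogenes. Cell cycle genes were lower in 33 of 34 members (median −0.15), the exception being Kif20a. Ctrl 3 had the highest cell cycle score, 5.26, against 4.37 to 4.87 in the other Ctrl libraries and 4.37 to 4.78 in CM0. The median was −0.07 without CM0 4, −0.02 without Ctrl 3 and 0.03 without Ctrl 3 and Ctrl 4, with 21 of 34 then higher. Of 19 clock genes 10 were higher and 9 lower (median 0.01, or −0.04 when scaled by library totals). At an unadjusted p under 0.05, 2 of the 19 were higher and 1 lower (2.13% and 2.78% of all genes). Bhlhe41, a clock repressor also called DEC2, had 15.7, 15.8, 14.5 and 15.9 CPM in CM0, against 18.4 to 27.8 CPM (median 19.4) in Ctrl. Its groups did not overlap and the CM0 libraries were close to each other (log2 fold change −0.49, SE 0.15, 95% interval −0.80 to −0.17). Clock and Rora, which drive the opposite arm of the cycle, had log2 fold changes of 0.15 (SE 0.07) and 0.35 (SE 0.16). The hour of collection was not used here, since the labels give none.

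Lists of other skin structures followed single libraries. All 13 tested hair follicle genes were lower, with a median of −2.76, and all 13 were higher without Ctrl 3 and Ctrl 4 (median 2.96). Krt83, a keratin of the hair shaft, was at 0.732, 2.22, 0.311 and 0 CPM in CM0, against 231 CPM in Ctrl 3, 6.89 CPM in Ctrl 4 and at most 0.363 CPM in the other Ctrl libraries. All 10 melanocyte genes were lower (median −1.24), and 6 were higher without both libraries (median 1.60). Of 26 skeletal muscle genes 21 were lower and 5 higher (median −0.18), and 15 were higher without both (median 0.03). Without 1 library the muscle median ranged between −0.57, without CM0 2, and 0.06, without Ctrl 4. Of 24 adipocyte genes 12 were higher and 12 lower (median −0.01). This split rested on single libraries: 22 were higher without Ctrl 2 (median 0.24), 19 without CM0 1 and 6 without Ctrl 5 (median −0.09). How much hair, pigment and muscle each sample held was not tested against the groups.

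To see whether CM0 differed from the other media, it was set against the mean of CM1, CMA and CMC. In this comparison edgeR called 0 of 18978 genes (0.0%), as did DESeq2 and limma, the lowest edgeR adjusted p was 0.9999, and 515 genes (2.71%) had an unadjusted p under 0.05, 259 (1.36%) higher and 256 (1.35%) lower in CM0. The comparisons of each medium with Ctrl share the Ctrl libraries, so their values for the leading genes are given side by side and not as support for each other. Vgll3 had a log2 fold change over Ctrl of 0.40 under CM0, with 0.24 under CM1, 0.27 under CMA and 0.24 under CMC. For Dact2 it was 1.86, 1.37, 1.26 and 1.09, and for Wnt2 1.78, 1.53, 1.29 and 1.70, in the same order. For Fibin it was 1.01, 1.21, 0.09 and 0.63, again in that order. Directly between media, the log2 fold change of CM0 was 0.15 for Vgll3, 0.36 for Dact1, 0.81 for Prdm8 and 0.35 for Tek. Each of these had an unadjusted p under 0.05 and an edgeR adjusted p of 0.9999. The list medians of CM0 against the other media were −0.03 for wound-edge keratinocytes, 0.02 for suprabasal genes, −0.10 for interferon-induced genes and −0.18 for core macrophage genes, beside 0.001 over all genes. Larger medians lay in other lists, with 0.48 for skeletal muscle, −0.32 for chemokines and −0.29 for inflammatory cytokines. They were −0.27 for repair-type macrophages, −0.22 for antigen presentation, 0.83 for hair follicle and 0.84 for melanocytes. At an unadjusted p under 0.05 were 3 antigen presentation genes, 1 chemokine gene and 1 repair-type macrophage gene. No skeletal muscle, inflammatory cytokine, hair follicle or melanocyte gene reached that level. CM0 2 had a muscle score of 8.572, against at most 7.611 in the other CM0 libraries. Its hair follicle score was 4.25, against at most 1.996. How far these medians rested on single CM0 libraries was not tested. Of 19 clock genes 6 had an unadjusted p under 0.05 in this comparison, with a list median of −0.14. The clock activators Arntl and Npas2 were higher in CM0, by 0.32 and 0.44 on the log2 scale. The repressors Ciart, Per3 and Cry1 were lower (−0.71, −0.48 and −0.38), as was Tef, a clock-controlled transcription factor (−0.27).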

How the data were processed

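RNA sequencing counts of day 10 wounds were analysed. Per the labels' protocols, total RNA of snap-frozen wound tissue was depleted of ribosomal RNA (Ribo-Zero), and libraries were built with a kit that keeps no strand (NEBNext Ultra RNA). The submitters' processing notes name bcl2fastq 2.17, FastQC, cutadapt, STAR, featureCounts and DESeq2, and the build GRCm38. The annotation release they counted on was not given in the sources used here. The values used are the raw counts per gene that the authors deposited, for 54232 genes in each of 24 libraries. Symbols came from GENCODE M21 for 54079 of them.

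Genes with few counts were removed with filterByExpr, which left 18978. The main test was 1 quasi-likelihood model in edgeR 4.0.16 (R 4.3.3; TMM scaling; robust dispersion), with 1 coefficient per group and all 24 libraries. The contrasts were CM0 minus Ctrl, and CM0 minus the mean of CM1, CMA and CMC. A Benjamini-Hochberg adjusted p under 0.05 counted as a call. DESeq2 1.42.0, limma 3.58.1 (voom with sample quality weights), other scalings, no filter, a fit of CM0 and Ctrl alone and fits without libraries were alternatives. The edgeR fit was tested on simulated counts.

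The 48 gene lists (941 entries, of which 932 matched by symbol, 6 by synonym and 3 not at all), the members and the tests were chosen with earlier results of these data known. Named genes were those called by any tool, the 10 higher and 10 lower protein-coding genes with the smallest p and an average log2 CPM of at least 0, the member with the smallest p in each list with at least 5 tested members, and a panel of 24 genes. One gene this rule names is not reported here. Lists are described by counts and medians. List scores average log2 CPM (prior count 2). Promoter windows are RefSeq's on GRCm38.p6, and 10 of the 36 interferon genes had none in the table.

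The labels number no replicates, so library numbers follow the deposited order and only name samples. The series text gives 6 Ctrl and 4 CM0 samples without saying that each was a separate mouse. The edgeR p-values set a difference against the spread between samples within groups, estimated over all 24 libraries. Within a group, pairs of libraries differed beyond counting noise (chi-square per degree of freedom of 11.8 or more), so none was counted as a duplicate. For the 18573 genes with an average log2 CPM of at least 0 the median SE of a log2 fold change was 0.168, which sets the precision.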

Additional observations from a re-analysis of the deposited data

Results flagged for a closer look

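Within each group, the highest and the lowest library were compared with the rest, and a value was picked out when its gap to the nearest library took up an unusually large part of the group's range. Of 274 groups of values screened 22 were picked out, and chance picks about 1 in 20. Chance and single-sample effects cannot be told apart here.

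Ctrl 1 was far above the other Ctrl libraries in Arg1 (694 CPM), Nos2 (160.6 CPM), Vegfa (215.5 CPM), Krt6a (1309 CPM) and Pfkl, the liver-type phosphofructokinase (113.6 CPM), and in the hypoxia and glycolysis score (7.52). Ctrl 3 was far above them in the hair genes Tchh (3412 CPM) and Krt83 (231.3 CPM) and in the pericyte gene Cspg4 (98.2 CPM), and below them in the lymphatic score (2.96) and the monocyte and dendritic cell score (2.72). Ctrl 4 stood out in the interferon score (4.28). Ctrl 6 was high in Nid1, a basement membrane linker (989.9 CPM), and in Mrc1 (553.5 CPM), and Ctrl 5 was low in Sidt1 (0.848 CPM).

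Among the CM0 libraries, CM0 2 was high in Tchh (136 CPM) and in the score of nuclear genes of the respiratory chain (6.31), and low in Rps4x, a ribosomal protein gene (409.7 CPM), and Pdia6, a folding enzyme (148.7 CPM). CM0 1 was low in Atp13a1 (67.4 CPM). CM0 3 was high in the lymphatic gene Lyve1 (18.7 CPM) and low in the Schwann cell score (2.28).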

How the results depend on the processing

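The count of genes called between CM0 and Ctrl was 0 by edgeR, 1 by DESeq2 and 0 to 1 without 1 library, the gene being Vgll3 in both cases. With no filter on low counts, 1566 genes had an unadjusted p under 0.05 between CM0 and Ctrl and 1337 between CM0 and the other media. Without 1 library, genes whose groups did not overlap numbered 216 to 491, as fewer libraries overlap less. Without Ctrl 3 and Ctrl 4 the median was 2.96 for hair follicle genes and 1.60 for melanocyte genes, Tchh was 2.53, Krt83 2.07, Casq1 0.0694, Pecam1 −0.0248, Il1b −0.0634 and Mki67 0.12. Without 1 library, medians ranged from 0.003 to 0.142 for lymphatic, −1.85 to 0.56 for melanocyte and −5.33 to 0.16 for hair follicle genes. With limma Arg1 was 0.68 and Il6 0.18, and by library totals Col1a1 was −0.0191. Without 1 library the log2 fold change ranged from −0.0702 to 0.10 for Col1a1, −0.0036 to 0.20 for Pecam1, −0.074 to 0.74 for Lyve1, −0.29 to 0.10 for Mrc1, −0.61 to 1.03 for Arg1, −0.998 to 1.11 for Il1b, −0.0053 to 0.38 for Fgf7, −0.28 to 0.0115 for Mki67 and −0.83 to 0.0652 for Casq1. Of library measures, CM0 minus Ctrl ranged from 867800 to 1811000 in total counts, −3.05 to 312.3 in genes detected and −0.0428 to −0.0176 in the TMM factor. The cause of these shifts was not tested. No paired analysis was possible because the labels number no replicates.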

Other observations

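Of the gene lists not described above, none had more than 1 member at an unadjusted p under 0.05. Basement membrane genes were higher in 12 of 16 members (median 0.10, or 0.06 without CM0 4, 0.16 without Ctrl 6 and 0.04 without Ctrl 3 and Ctrl 4), with Nid1 at a difference of 0.34 ± 0.15 on the log2 scale (SE; 95% interval 0.03 to 0.66). Genes of matrix proteases and their inhibitors were higher in 16 of 22 members (median 0.16, or 0.05 without CM0 4, 0.27 without Ctrl 6 and 0.08 without Ctrl 3 and Ctrl 4). Pericyte genes were higher in 9 of 10 (median 0.07), but in 5 of 10 without Ctrl 3 (median −0.001) and in 5 of 10 without Ctrl 3 and Ctrl 4. Angiogenic signals were higher in 9 of 19 (median −0.01, and −0.06 to 0.09 without 1 library). Complement genes were higher in 10 of 17 (median 0.12, and −0.02 to 0.31 without 1 library), and Cd55, which protects cells from complement, had 104.9, 50.5, 92.8 and 47.4 CPM in CM0, against 22.7 to 56.2 CPM in Ctrl (log2 fold change 0.86, SE 0.45, 95% interval −0.07 to 1.79). Monocyte and dendritic cell genes were higher in 7 of 14 (median −0.06, and −0.13 to 0.03 without 1 library) and mast cell genes in 5 of 12 (median −0.03, and −0.16 to 0.08).

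Genes of protein folding stress were higher in 20 of 24 members (median 0.07, and 0.04 to 0.12 without 1 library). Nuclear genes of the respiratory chain were higher in 20 of 26 (median 0.03), but in 5 of 26 without CM0 2 (median −0.05) and in 9 of 26 without Ctrl 5. Scaled by library totals their median was −0.015, beside −0.055 over all genes. Mitochondrial genome genes were lower in 9 of 11 (median −0.03, and −0.13 to 0.01 without 1 library). Medians were 0.01 for hypoxia and glycolysis (−0.07 to 0.15 without 1 library), 0.01 for immediate early (−0.08 to 0.19), −0.04 for oxidative stress (−0.09 to 0.01) and 0.03 for glucocorticoid-responsive genes (−0.06 to 0.10). Sebaceous gland genes were higher in 4 of 10 (median −0.06, and −0.13 to 0.03 without 1 library), Schwann cell genes in 5 of 14 (median −0.04, and −0.14 to 0.02) and red cell genes in 6 of 7 (median 0.15, and −0.02 to 0.40 without 1 library).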
